A study of Mus musculus with 9 samples.

Results

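The regions described here were 245 places in the mouse genome at which an anti-NLRC5 chromatin immunoprecipitation (ChIP-seq) of wild-type (WT) T cells gave a peak more than once, and which lie away from the major histocompatibility complex (MHC). They were selected on the peaks themselves: the peaks of 5 WT lists, A to E, were joined where they overlapped by at least 1 bp, and a site was kept if at least 2 of the 5 lists held it, if it lay on chromosomes 1 to 19, and if it lay outside chr17:33496017-37770220 (GRCm38), the interval that holds the MHC. Of 4207 joined WT sites, 4143 lay on these chromosomes outside the interval, 3898 of them in a single list and 245 in 2 or more. The number of lists and the WT scores of the 245 sites are therefore a description. Their presence in the lists of other genotypes, their position relative to genes and their sequence were not used to choose them.

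The series holds 9 samples of T cells from mice 6 to 12 weeks old, enriched with magnetic beads and pooled from 5 mice per genotype, and the 7 peak lists used here were the 5 WT lists, 1 list from Nlrc5F/F mice and 1 list from Rfx5-/- mice. WT, Nlrc5F/F and Nlrc5-/- mice were on the C57Bl/6 (H2b) background and Rfx5-/- mice on a mixed Sv129/C57Bl/6 (H2b) background. Nlrc5F/F mice carry floxed but functional Nlrc5 alleles and so serve as a second NLRC5-expressing pool, Rfx5-/- mice lack RFX5, and Nlrc5-/- mice lack the protein that the antibody, a rabbit polyclonal raised against mouse NLRC5, recognises. The 5 WT lists are pseudo-replicates, subsets of the reads of 1 WT pool, and their agreement says nothing of how mice differ. All 7 lists were called against the same Nlrc5-/- reads, and so they are not independent of each other. The complete WT and the Nlrc5-/- samples were not analysed here as peak lists. Each peak carries a score, the -log10 of its p-value, and no read count, which leaves the depth of any peak unknown, and peaks alone cannot check the markers of the labelled cell type. Such a score depends on the number of reads as well as on enrichment. Scores of different genotypes may therefore not be on 1 scale, and they are set side by side below only as values. With 1 pool per genotype no test between genotypes was possible, and the 95% Wilson intervals given below cover counting error only.

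NLRC5 is a NOD-like receptor family protein that acts in the nucleus as a transcriptional coactivator of MHC class I genes. It does not bind DNA itself but is recruited by an enhanceosome on the SXY module of these promoters, in which the RFX complex, with RFX5 as a subunit, sits on the X box and NF-Y on the Y box, an inverted CCAAT motif. B2m, the light chain of class I molecules, carries such a module although it lies outside the MHC.

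The sequences of 10 recurrent sites show the kinds of DNA these peaks covered, each read from the GRCm38.p6 reference on the plus strand as up to 150 bases around the centre of the stretch that all WT peaks of the site share. The first is the B2m promoter, shown because it held the highest scores of all 245 sites; capitals mark TGACG, the core of an X2 box, and ATTGG, the core of a Y box.
B2m promoter, chr2:122147505-122147654: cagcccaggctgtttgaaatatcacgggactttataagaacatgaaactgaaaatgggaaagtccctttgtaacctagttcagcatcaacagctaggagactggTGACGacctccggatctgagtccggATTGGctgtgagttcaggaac
The next 5, from sites in 3 or 5 WT lists, are shown because they share letters with each other: capitals mark ACTAC, any 3 bases and then TCCC, or the reverse complement of this.
Chchd4 and Tmem43 promoters, chr6:91473545-91473694: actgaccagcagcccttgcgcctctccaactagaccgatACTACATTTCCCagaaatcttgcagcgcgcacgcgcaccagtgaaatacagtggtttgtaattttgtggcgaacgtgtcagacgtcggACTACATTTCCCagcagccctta
Ifrd2 promoter, chr9:107587519-107587668: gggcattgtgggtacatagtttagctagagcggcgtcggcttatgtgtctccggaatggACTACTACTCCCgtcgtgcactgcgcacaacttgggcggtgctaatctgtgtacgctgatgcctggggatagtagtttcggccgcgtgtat
Prcc promoter, chr3:87885736-87885885: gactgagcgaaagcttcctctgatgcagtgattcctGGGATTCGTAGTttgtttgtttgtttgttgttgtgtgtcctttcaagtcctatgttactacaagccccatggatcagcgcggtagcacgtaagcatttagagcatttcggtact
upstream of Phf12, chr11:77981792-77981941: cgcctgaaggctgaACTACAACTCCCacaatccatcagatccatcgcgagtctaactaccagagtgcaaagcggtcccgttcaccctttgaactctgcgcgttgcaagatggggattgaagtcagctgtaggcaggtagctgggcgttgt
Snx16 promoter, chr3:10440258-10440393: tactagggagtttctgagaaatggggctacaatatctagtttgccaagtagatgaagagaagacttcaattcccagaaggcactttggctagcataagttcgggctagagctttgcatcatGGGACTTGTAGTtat
The last 4, each in all 5 WT lists, are shown because part of their sequence has other copies in the genome: a capital marks each base at which a 50-base stretch begins that occurs more than once, on either strand, in the reference.
Aida intron, chr1:183299190-183299339: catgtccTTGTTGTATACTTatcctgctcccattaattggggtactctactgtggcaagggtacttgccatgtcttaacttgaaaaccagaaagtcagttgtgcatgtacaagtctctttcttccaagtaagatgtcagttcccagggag
intergenic, near Ly6c2, chr15:75085766-75085912: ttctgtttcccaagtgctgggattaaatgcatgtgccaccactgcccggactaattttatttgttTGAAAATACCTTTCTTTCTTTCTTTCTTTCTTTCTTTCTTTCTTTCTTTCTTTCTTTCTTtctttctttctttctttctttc
start of Speer4cos, chr5:15680669-15680818: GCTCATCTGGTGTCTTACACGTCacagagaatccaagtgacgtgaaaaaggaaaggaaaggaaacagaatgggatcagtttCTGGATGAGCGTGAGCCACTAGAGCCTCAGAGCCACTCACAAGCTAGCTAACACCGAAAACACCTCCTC
intergenic, near Gm21847, chr5:15511583-15511732: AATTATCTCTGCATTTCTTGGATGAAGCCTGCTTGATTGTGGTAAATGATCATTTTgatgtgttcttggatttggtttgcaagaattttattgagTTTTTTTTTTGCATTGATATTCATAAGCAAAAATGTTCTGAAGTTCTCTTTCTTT
In the Aida intron 13 of the 150 bases began a repeated stretch, against 60 of 147 near Ly6c2, 92 of 150 at Speer4cos and 111 of 150 near Gm21847. The B2m stretch began none.

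Most recurrent sites were found in the smallest number of lists the choice allowed. A peak was present in 2 lists at 174 sites, in 3 lists at 39, in 4 lists at 17 and in all 5 at 15. Lists C and D together, without the others, held 32 sites, D and E 27, C and E 22. The lists differed in length, from 459 peaks in A and 529 in B to 1436 in C, 1043 in D and 1207 in E, and 92 sites had a peak in A, 102 in B, 141 in C, 133 in D and 140 in E. These sites took up 21.5% of the peaks of list A and 20.5% of those of B on the chromosomes considered, against 10.1% in C, 13.2% in D and 12.0% in E. The median over sites of their median WT score was 5.34 (range 3.19 to 86.9), beside 4.48 (3.01 to 16.7) over single-list sites. At the edge of the rule the median score was 5.23 for sites in 2 lists, just inside, and 4.48 for those in 1 list, just outside; sites in 5 lists had a median of 9.59.

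The B2m promoter stood first (chr2:122147136-122147954, centre 141 bp upstream of the transcription start site, TSS). Its scores were 87.0 in list A, 96.7 in B, 86.9 in C, 66.5 in D and 82.6 in E, and it had a peak of score 25.8 in the Nlrc5F/F list and none in the Rfx5-/- list. The next highest median belonged to a site in an intron of Aida, which encodes an axin-interacting protein (chr1:183299142-183299545), 2075 bp upstream of the start of the neighbouring gene Brox. Its scores were 37.2, 22.2, 37.5, 13.2 and 41.9 in lists A to E, with 6.55 in Nlrc5F/F and 25.4 in Rfx5-/-. B2m and the Aida site thus differed in that the latter kept a peak in Rfx5-/- cells, where its score was within the range of the WT lists.

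On chromosome 15, 3 recurrent sites lay side by side between 75085515 and 75087018, 25104 bp at the nearest from the start of Ly6c2, a gene for a surface protein of monocytes and memory T cells. The highest (chr15:75085766-75085912) was repeat-masked over its whole length. It had scores of 22.3, 22.6, 27.7, 34.2 and 24.6 in lists A to E and 26.8 in Nlrc5F/F, with no Rfx5-/- peak. The paper lists its peak within this site as not dependent on RFX5, although its methods describe all of its peaks as absent in Rfx5-/- cells. The next (chr15:75086714-75087018) had 14.6, 15.2, 16.6, 7.71 and 14.8, with 3.70 in Nlrc5F/F and 5.89 in Rfx5-/-, and 8.85% of its bases were masked. Its nearest annotated TSS was that of Gm28502, not that of Ly6c2. The other one (chr15:75085515-75085612) was present in D at 13.9 and in E at 10.7, and in neither other genotype.

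The remaining sites in all 5 lists scored between 4.47 and 21.03 in single WT lists. A site at the start of Speer4cos on chromosome 5 had 8.55, 17.5, 17.8, 21.03 and 15.5, with 18.1 in Nlrc5F/F and 8.00 in Rfx5-/-. The promoter of Ifrd2, an interferon-related developmental regulator, had 6.52, 11.5, 5.09, 7.37 and 11.8, with 9.44 in Nlrc5F/F and 9.10 in Rfx5-/-, so that both other genotypes lay inside the WT range. The promoter of Prcc, a gene fused to TFE3 in some renal tumours, had 5.36, 4.47, 5.73, 5.15 and 7.43, with 6.62 in Rfx5-/- and no Nlrc5F/F peak. No peak of another genotype was found at 5 of these sites. They included the shared promoter of Chchd4, a mitochondrial import factor, and Tmem43 (12.0, 8.37, 6.38, 8.30 and 6.37 in lists A to E). The promoter of the leucyl-tRNA synthetase Lars (6.01, 9.07, 10.5, 8.35 and 5.36) and a site upstream of the PHD finger gene Phf12 (11.6, 17.5, 10.3, 11.7 and 9.91) were among them. The others were a site far upstream of Ldb1, which encodes a LIM domain cofactor (11.3, 7.42, 5.15, 7.02 and 7.02), and an intergenic, almost fully masked site near Gm37070 on chromosome 1 (10.7, 9.36, 6.07, 9.59 and 11.8). The last 3 of the 15 lay, with Speer4cos, in a region of chromosome 5 that is taken up further on.

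**Figure D1:**
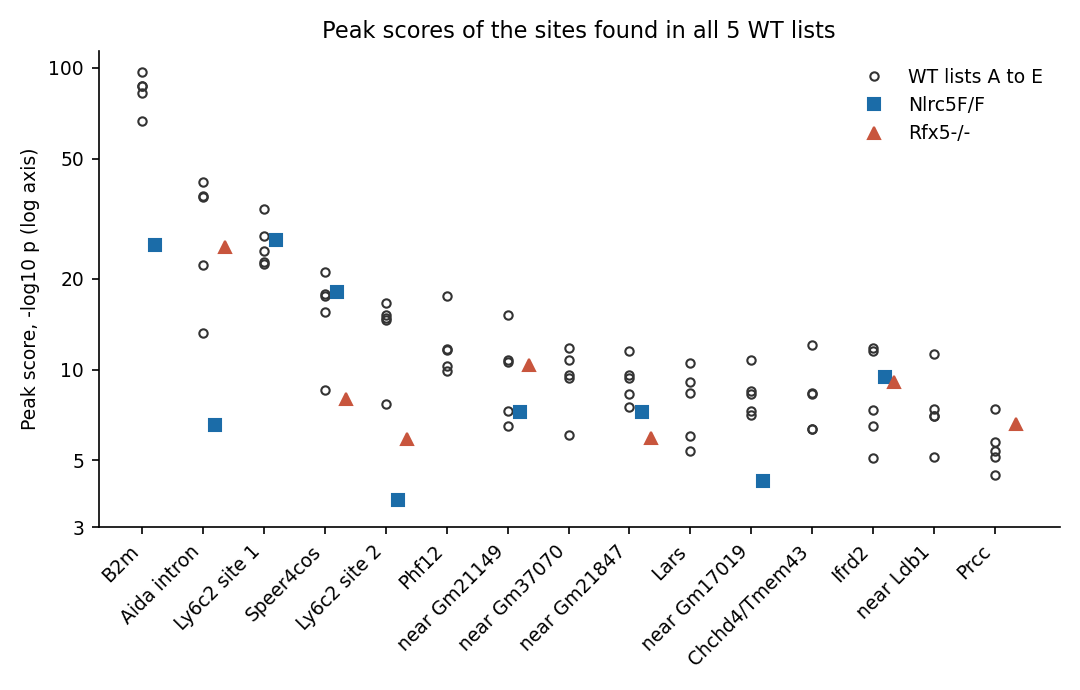
Peak scores (-log10 p, log axis) of the 15 sites found in all 5 WT lists, ordered by median WT score; open circles are WT lists A to E, squares the Nlrc5F/F list and triangles the Rfx5-/- list, drawn only where a peak was present. Ly6c2 site 1 and site 2 are the sites at 75085766 and 75086714 of chromosome 15. B2m stands above all others in every WT list and has no Rfx5-/- symbol, whereas the Aida intron has its Rfx5-/- symbol within the WT circles.

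The presence of these sites in the other genotypes was read next. A peak of the Nlrc5F/F list overlapped 33 of the 245 sites, 13.5% (interval 9.75 to 18.3), beside 0.949% of single-list sites. A peak of the Rfx5-/- list overlapped 24 sites, 9.80% (6.67 to 14.2), beside 0.616% of single-list sites. Both lists had a peak at 15 sites, only Nlrc5F/F at 18, only Rfx5-/- at 9, and neither at 203. Over a fixed window of 200 bp at the centre of each site, which sets aside the greater width of recurrent sites (median 176 bp, against 112 bp), the counts were the same, 33 and 24. The share was larger for sites in more WT lists: 5.17% of the sites in 2 lists had an Nlrc5F/F peak, as did 8 of 39 in 3 lists, 7 of 17 in 4 and 9 of 15 in 5. For Rfx5-/- the counts were 8 of 174 sites in 2 lists, 3 of 39 in 3, 6 of 17 in 4 and 7 of 15 in 5. Seen from the other lists, 34 of 1931 Nlrc5F/F peaks and 24 of 1946 Rfx5-/- peaks on these chromosomes fell on a recurrent site, with median scores of 6.38 and 6.28, against 4.28 and 4.46 for peaks on no WT site.

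**Figure D2:**
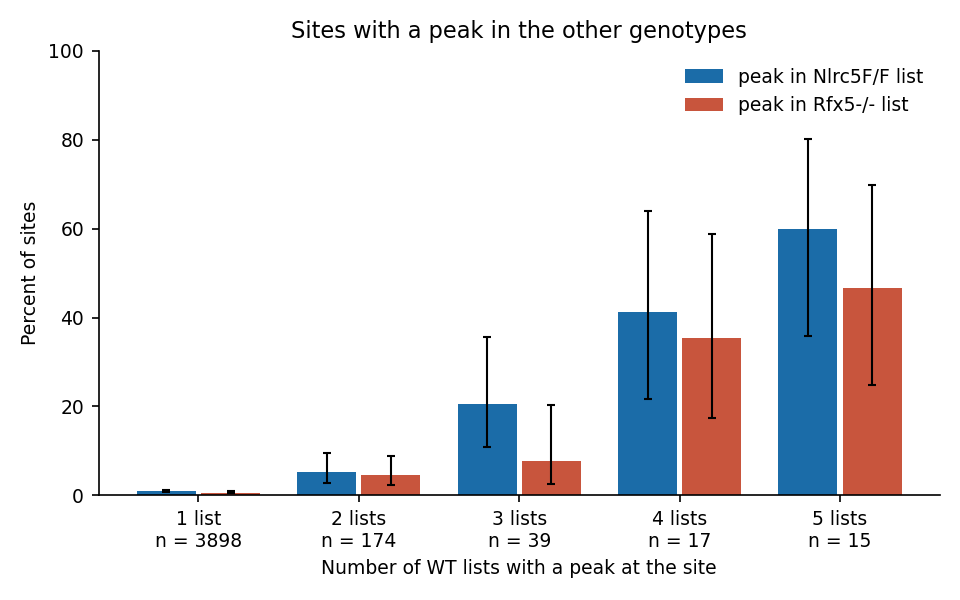
Percent of WT sites with a peak in the Nlrc5F/F list (left bars) and the Rfx5-/- list (right bars), by the number of WT lists that held the site; error bars are 95% Wilson intervals for counting error. Both shares are near 1% or below for sites in 1 list and are highest, at 9 and 7 of 15 sites, in all 5 lists.

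Recurrent sites are described as 3 kinds: promoters of protein-coding genes, a region of chromosome 5 around the Speer4 genes, and all others. A promoter was taken as 500 bp before to 50 bp after a TSS. At such a window lay 84 recurrent sites, 34.3% (28.6 to 40.4), beside 8.26% of single-list sites, and 79 of the 84 belonged to a protein-coding gene. The nearest TSS was 3531 bp away at the median, against 14835 bp for single-list sites, and 102 sites (41.6%) had their centre within 1000 bp of a TSS, against 13.2%. The centre of 38 sites lay in an exon, of 85 in an intron and of 122 between genes.

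**Figure D3:**
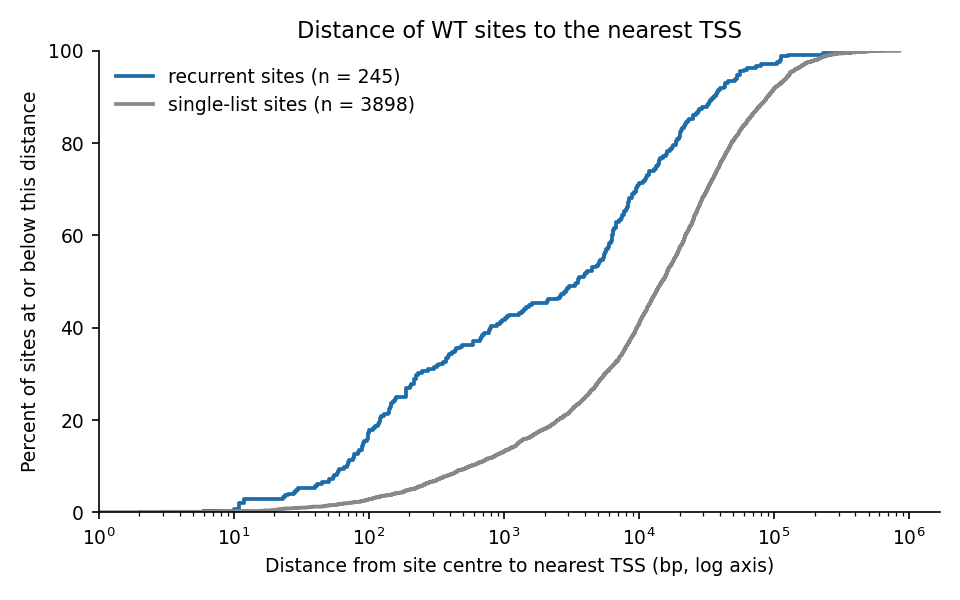
Cumulative percent of sites (y axis) whose centre lies at or below a given distance from the nearest TSS (x axis, bp, log axis), for 245 recurrent and 3898 single-list sites. The curve of recurrent sites lies above that of single-list sites over most of the range, with 41.6% against 13.2% within 1000 bp.

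Of the 79 coding sites 13 overlapped the promoters of 2 or more genes. Ap2m1, the medium subunit of the AP-2 clathrin adaptor, came next to B2m in median score, 13.3, with 14.9 in A, 16.4 in C, 11.6 in D and 10.8 in E, and the lowest median, 3.19, was that of Zfp317. An Nlrc5F/F peak without an Rfx5-/- peak was found at 9 coding promoters: B2m, Sirt2 (a deacetylase), Slc35b1 (a transporter of the endoplasmic reticulum), Snx16 (a sorting nexin), Ndufb5 (a respiratory complex I subunit), Nicn1, Fbxo9 with Ick, Tor2a and Tomm40l. Their Nlrc5F/F scores ran from 3.68 at Slc35b1 to 25.8 at B2m, and without B2m the highest was 8.08, at Fbxo9 and Ick. An Rfx5-/- peak alone was found at 6 coding promoters, Ap2m1 (7.15), Nup153 (4.99), Ddx23, a splicing helicase (4.08), Cryzl1 with Itsn1 (4.46), Zfp84 (5.31) and Prcc (6.62). Ifrd2 had both, and so did the promoter of Gm9758 in the Speer4 region. Outside that region 10 of 78 coding promoters had an Nlrc5F/F peak, 12.8% (7.12 to 22.0), and 7 an Rfx5-/- peak, 8.97% (4.42 to 17.4). Single-list sites at coding promoters had them at 10 of 272, 3.68% (2.01 to 6.63), and 7 of 272, 2.57% (1.25 to 5.22).

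The letters marked in capitals above were counted in 200-bp windows at the site centres. The motif ACTAC, any 3 bases, TCCC, on either strand, was chosen after the sequences of the recurrent sites themselves had been read. That choice favours a higher share among them, so the shares below are a description and no test. The motif resembles part of the element known for the promoter factors ZNF143 and THAP11, and a match says nothing about which protein was there. It was present at 35 of 245 recurrent sites, 14.3% (10.5 to 19.2), against 68 of 3898 single-list sites, 1.74% (1.38 to 2.21), and 0.0843% of 11979192 windows tiled along chromosomes 1 to 19. At coding promoters alone 27 of 79 recurrent sites held it, 34.2% (24.7 to 45.2), against 54 of 272 single-list sites, 19.9%, and 490 of 20597 windows centred on the TSS of all protein-coding genes outside the interval, 2.38%. The intervals of the recurrent and single-list shares at coding promoters overlapped slightly. Away from coding promoters the counts were 8 of 166 recurrent sites, 4.82%, and 14 of 3626 single-list sites, 0.386%. The share was 7.47% of sites in 2 lists (13 of 174), 23.1% in 3 lists, 41.2% in 4 lists and 6 of 15 sites in 5 lists ( Lars, Chchd4, Ifrd2, Prcc, Phf12 and Ldb1). Of the 35 sites 12 held it more than once, up to 4 times at the start of Banp, and in 29 the nearest copy lay within 500 bp of a TSS. Over all 35 the median position was 64 bp upstream. Among coding promoters outside the Speer4 region it was found at 5 of 10 sites with an Nlrc5F/F peak, at 5 of 7 with an Rfx5-/- peak and at 18 of 62 with neither. No site of the Speer4 region held it, 0 of 22 (upper bound 14.9%). B2m did not hold it.

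The coding promoters with the motif were those of Ap2m1, Nup153, Ddx23, Lars, Chchd4 with Tmem43, Dnm1l, Rabac1, Gid4, Ifrd2, Zfp180, Btrc, Sirt2, Zfp235, Snx16, Xrra1, Prpf19, Cbr4, Cant1, Dcaf1, Prcc, Nicn1, Zbed6 with Gm38394 and Zc3h11a, Fbxo9 with Ick, Desi2, Zfp513, Uqcr10 with Zmat5 and Zfp317. Without it, in 3 to 5 WT lists, stood B2m, Gm9758, Clhc1 with Rps27a, Lemd2, Cryzl1 with Itsn1, Slc35b1, Hspa9, Tbck, Gsk3a, Pex11a with Wdr93, Klhl28 with Togaram1 and Rps20, 12 sites in all, and in 2 lists Rcc1l, Klhl18 with Kif9, Serf1, Dido1 with Gid8, Ppp6r2, Aff1, Ndufb5, Pan3, Gemin2, Ubfd1, Zfp84, Nup85, Traf7, Josd2, Rdh12, Cbll1, Tmem192, Mcur1, Pex16, C2cd3, Erg28 with Ttll5, Mrpl32 with Psma2, Gm28048 with Commd1, Narfl, 2610001J05Rik, Rab21, Cdk12, Tor2a, Wdr19, Ap1s1, Rpl27, B3galt6, Tomm40l, Rpp38, Wbp1l, Enkd1, Eif1ad, Spice1, Psmb5 and Arap1, 40 sites.

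**Figure D4:**
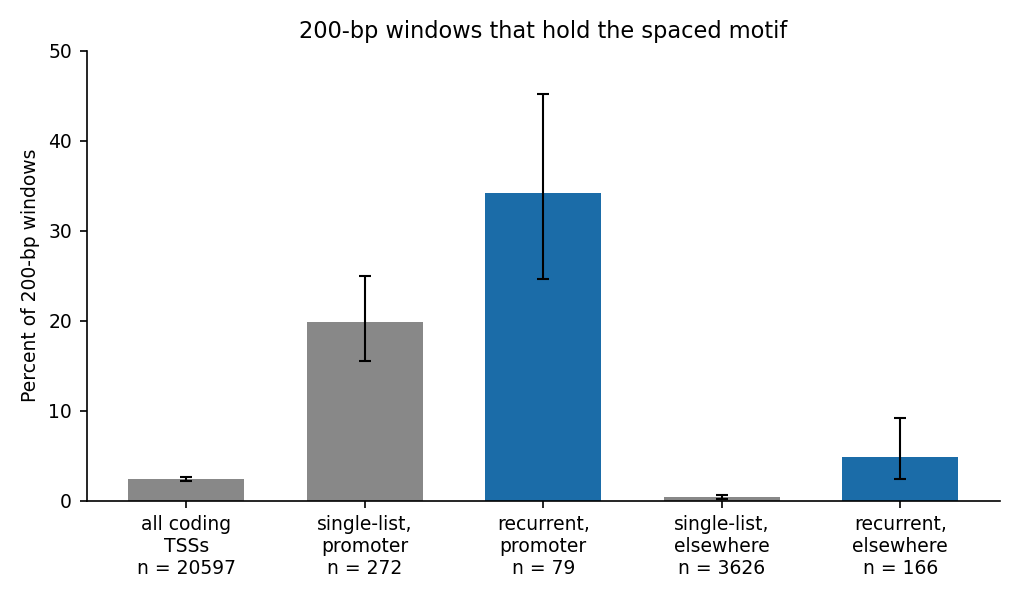
Percent of 200-bp windows that hold the motif of 2 parts separated by 3 bases, on either strand, with 95% Wilson intervals; windows are centred on the TSS of all protein-coding genes (first bar) or on the centres of WT sites. Recurrent sites stand at 34.2% at coding promoters and 4.82% elsewhere, each above the single-list sites of the same kind, and all coding TSSs stand at 2.38%. The motif was chosen after the sequences of the recurrent sites had been read.

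Over all sites the other motifs differed less between recurrent and single-list sites, or not at all. ATTGG, found in the Y box but also in 29.1% of all tiled windows, was present at 65 recurrent sites, 26.5%, against 26.4% of single-list sites. TGACG was present at 13.5% against 6.49%, but at coding promoters at 25.3% of recurrent and 18.8% of single-list sites, and at 18.8% of all coding TSSs. GTTGCC, which an X box can contain, gave 16.5% of recurrent coding promoters against 8.82% of single-list ones and 8.47% of all coding TSSs. CCGGAA gave 21.5% against 19.5% and 15.3%, in the same order. Over all sites CCGGAA differed more, at 27 of 245 recurrent sites (7.69 to 15.6%) and 117 of 3898 single-list sites (2.51 to 3.59%). Away from coding promoters it was present at 6.02% of recurrent and 1.77% of single-list sites. GAAANNGAA, an interferon response element core, was present at 25 of 245 recurrent and 385 of 3898 single-list sites, TGTGGT, the core bound by RUNX factors, at 11.8% and 14.7%, and runs of CA or TG repeated at least 8 times at 1.22% and 2.03%.

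The Speer4 region held the densest runs of recurrent sites. Recurrent sites whose neighbours lay within 250000 bp were grouped, a grouping chosen after the values had been seen, and 2 of the 3 groups of at least 4 sites lay on chromosome 5: 16 sites in chr5:15460439-15689947, with Speer4d, Speer4cos and several predicted genes, and 6 sites in chr5:14914939-15053220, with Speer4e, Gm10354 and Gm17019. The first stretch spans 0.00932% of the autosomal bases and held 6.53% of the recurrent sites, beside 14 single-list sites, 0.359%. Speer genes encode a rodent family of glutamate-rich proteins expressed in testis. Of the 22 sites of both stretches 15 had an Nlrc5F/F peak, 68.2% (47.3 to 83.6), 12 an Rfx5-/- peak, 54.5% (34.7 to 73.1), and 11 had both, out of 15 sites with both in the whole set. The 17 single-list sites in the same stretches had them at 5 and 3. Median WT scores in the 16-site stretch ran from 3.71 to 17.5. At chr5:15484185-15484350 the scores were 6.52, 7.30, 15.2, 10.7 and 10.6, with 7.25 in Nlrc5F/F and 10.4 in Rfx5-/-. At chr5:15511547-15511741, near Gm21847, they were 7.51, 9.36, 11.5, 9.59 and 8.32, with 7.25 and 5.95. At chr5:15037379-15037586, the third of the sites in all 5 lists, they were 10.7, 7.30, 7.09, 8.46 and 8.32, with 4.28 in Nlrc5F/F and no Rfx5-/- peak. The other 8 sites of the region with a peak in both genotypes were in 2 to 4 WT lists, and their Nlrc5F/F scores ran from 6.00 to 9.44.

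Part of the sequence of these sites had other copies in the genome. None of the 22 consisted wholly of 50-base stretches that occur once in the reference, against 97.4% of the coding promoters outside the region (76 of 78) and 81.4% of the other sites. At the median 51.2% of the stretches that begin in a Speer4 site were unique (range 0 to 93.2%), and 13 of the 22 sites consisted mostly of unique stretches. Among themselves only 4 recurrent sites formed pairs alike over at least 80 bp at 90% identity or more, all 4 on chromosome 5. Over all 245 sites, 230 (93.9%) consisted mostly of unique stretches, beside 99.2% of single-list sites. Sites made up wholly of unique stretches were 12 of 33 with an Nlrc5F/F peak and 7 of 24 with an Rfx5-/- peak. They were 1 of 15 with both peaks, against 176 of 203 with neither. At least 50% of the bases were repeat-masked at 42 of the 245 sites, 17.1% (12.9 to 22.4), beside 20.3% of single-list sites. In the Speer4 region this held for 9 of 22 sites, 40.9% (23.3 to 61.3), and outside it for 33 of 223, 14.8%. The part of sequence copies in the peaks of this region, or in the presence of sites in the other genotypes, was not tested. Without the region the Nlrc5F/F share of recurrent sites was 18 of 223, 8.07% (5.17 to 12.4), and the Rfx5-/- share 12 of 223, 5.38% (3.10 to 9.17), and in 5 WT lists the counts were 5 and 4 of 11.

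**Figure D5:**
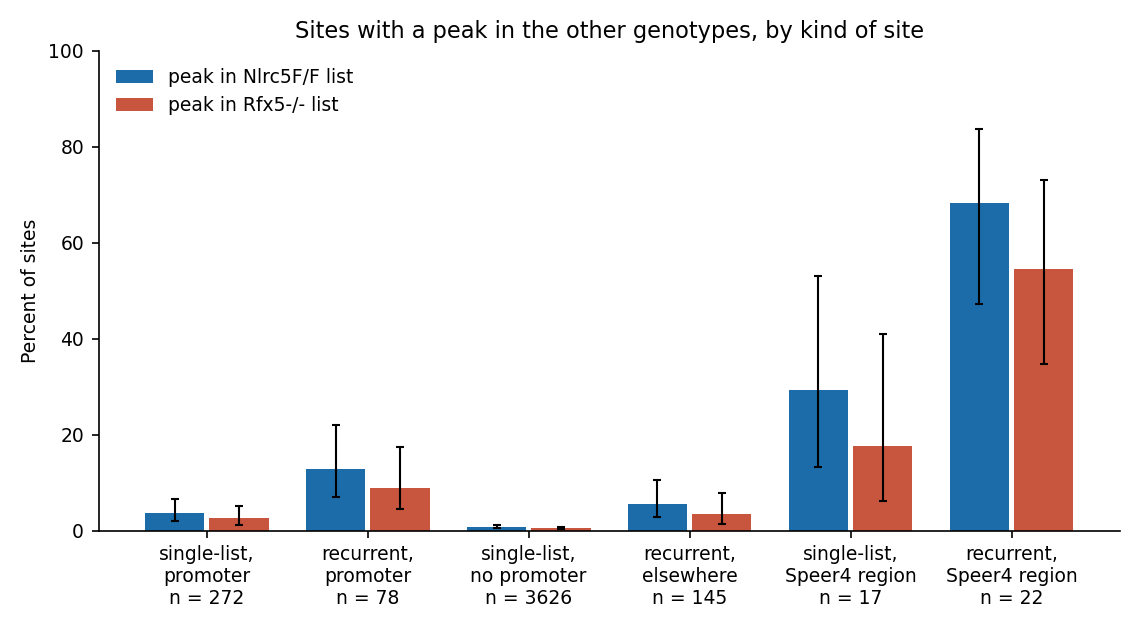
Percent of sites with a peak in the Nlrc5F/F list (left bars) and the Rfx5-/- list (right bars), by kind of site, with 95% Wilson intervals and the number of sites under each pair; promoter means a protein-coding promoter. Recurrent sites stand above single-list sites of the same kind, and the 22 recurrent sites of the Speer4 region stand highest, at 68.2% and 54.5%.

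Recurrent sites of the third kind, neither at a coding promoter nor in the Speer4 region, numbered 145. Of these 8 had an Nlrc5F/F peak, 5.52% (2.82 to 10.5), and 5 an Rfx5-/- peak, 3.45% (1.48 to 7.82), with intervals that overlapped those of the coding promoters. Single-list sites away from coding promoters, those in the Speer4 stretches included, had them at 27 and 17 of 3626. Besides the Aida site and 1 of the sites near Ly6c2, both peaks were found at an intergenic site of chromosome 3 (chr3:5860396-5860821, present in B, C, D and E at 6.05, 7.53, 5.36 and 4.69), where the scores in Nlrc5F/F, 14.2, and Rfx5-/-, 10.197, were above those of every WT list. Only 53.1% of the stretches that begin in this site were unique. The remaining group of neighbouring sites, 5 on chromosome 1 between 85253094 and 85676576, holds Sp110, Sp140 and Sp100, which encode nuclear body proteins. Its highest-scoring site (chr1:85253094-85253217) scored 15.6 in D and 11.2 in E and 14.2 in Nlrc5F/F, and 8.06% of its stretches were unique. This share was also the median of the 5 sites, below the median of 51.2% in the Speer4 region, and 1 of the 5 consisted mostly of unique stretches. Among the 10 highest medians was also a site in an intron of E030030I06Rik (chr10:22142938-22143048), with 18.2 in C, 15.3 in D and 22.4 in E and no peak in A, B or another genotype.

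Of 20 class I pathway genes outside the MHC, B2m had a recurrent site within 5000 bp, and Raet1e and H60b, ligands of the NKG2D receptor, had the E030030I06Rik site within 50000 bp, at 15576 and 15593 bp. Of 20 T cell genes Tcf7 alone did, 45190 bp from a fully masked site, and of 8 Ly6 genes Ly6c2 and Ly6c1 did. Over all 20597 protein-coding genes outside the interval, 0.709% had a recurrent site within 5000 bp and 2.50% within 50000 bp.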

How the data were processed

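ChIP-seq reads were processed by the authors, who credit CASAVA 1.8.2, Bowtie 0.12.7 and MACS2 2.0.10.20130520 in the submitters' processing notes; uniquely mapped reads were used, and peaks were called without a model at a relaxed p-value threshold with the smaller sample scaled to the larger, against the Nlrc5-/- reads. The deposited lists give each peak's coordinates and a score, which per the methods and the values is the −log10 p-value of the peak; the lowest score in any list was 3.01. The lists hold no read counts, and the depth behind a peak is unknown. Coordinates were read as GRCm38.

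Peaks of the 5 WT lists were merged at 1 bp of overlap. TSSs came from the GENCODE M21 annotation, sequence, masking and copies of 50-base stretches from the GRCm38.p6 reference. The merge, the copy counts and the motif search were tested on simulated data. Intervals are 95% Wilson intervals. No p-value was computed, because each genotype is 1 pool. The sites named are those in all 5 lists, those with a peak in both other genotypes, the 10 highest medians, the coding promoters and the sites of B2m, Aida and Ly6c2. The distances of a list of regulator genes are not reported here. The members and the lists were chosen with earlier results of these data known. Alternatives tried were 50% reciprocal overlap, a score of at least 5, at least 3 lists, leaving out each WT list, and other definitions of presence, promoter, masking and uniqueness. Python 3.11.15, numpy 2.4.6, scipy 1.17.1, numba 0.67.0, matplotlib 3.10.9 and BLAST 2.17.0 were used.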

Additional observations from a re-analysis of the deposited data

Results flagged for a closer look

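Scores of the 32 recurrent sites in 4 or 5 WT lists, and 3 measures of the lists themselves, were searched for a list far from the others. Chance alone marks about 1 in 20 such groups if values are normally spread, and 4 of 35 were marked. At the site near Ly6c2 at chr15:75086714-75087018 list D scored 7.71 against 14.6 to 16.6 in the others. Upstream of Phf12 list B scored 17.5 against 9.91 to 11.7. At chr5:15463129-15463274, near Gm43391 in the Speer4 region, list E scored 14.2 against 7.37 to 8.15. At the Zfp317 promoter list B scored 7.02 against 3.19 in each of A, C and E, and D had no peak. Those tied scores lay just above the lowest score of any list, 3.01, so the mark there says little about list B.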

How the results depend on the processing

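The number of recurrent sites, 245, fell to 117 with scores of at least 5 and to 71 with at least 3 lists, and ranged from 160 to 201 when 1 list was left out (160 without E, 161 without C). With at least 3 lists the Nlrc5F/F share was 33.8%, the Rfx5-/- share 22.5% and the promoter share 42.3%. With scores of at least 5 the Nlrc5F/F share was 18.8%, the Rfx5-/- share 14.5% and the share of mostly unique sites 89.7%. Leaving out the Speer4 region, an alternative chosen after seeing the data, gave 8.07%, 5.38% and 97.3% for these. Counting promoters to 1000 bp on both sides of the TSS gave 42.9%, masking of at least 90% gave 7.35%, and windows of 36 bases gave 88.2% mostly unique. Leaving out 1 list gave ranges of 15.4 to 18.01% for Nlrc5F/F, 10.4 to 13.1% for Rfx5-/-, 31.3 to 40.4% for promoters, 14.9 to 19.9% for masking and 92.5 to 94.4% for uniqueness. Of 61 alternatives 45 stayed within the counting interval of the value as reported, or within 1.5 times the count, and 16 moved beyond it. The causes were not tested. The WT lists are subsets of 1 pool, each other genotype is 1 pool, and all share their control reads.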
